A study of Mus musculus with 39 samples.

Results

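The cells described here were duct-like epithelial cells of the adult mouse liver that differed in whether they carried RNA for albumin, the main protein that hepatocytes secrete into plasma. They were selected on measured values: Spp1 (osteopontin, a secreted phosphoprotein of bile duct cells) at 100 CPM or more and Apoa1 (the main apolipoprotein of high-density lipoprotein, made by hepatocytes) under 100 CPM. CPM is the linear value recovered from the deposited log2 value and is read here as a scaled read count. These values do not sum to the same total in every cell, so 100 CPM is not the same share of each library. This rule took 22 of the 39 cells of the series. Among them 12 cells had Alb at 1000 CPM or more and are called Alb-high, and 10 cells had less and are called Alb-low. The series is of single GFP+ cells sorted from the livers of adult mice with the alleles Krt19CreERT and Rosa26CAG-EGFP, and all cells of both groups share these alleles. Cre was therefore driven by the Krt19 promoter, and the label says that a green cell may be a Krt19+ cell or its progeny. The labels put all 39 cells in 1 group. They name no animal, age, sort or inducer dose, so the cells count as 1 sample, the differences below have no replicate check, and no p-value is given.

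Bile duct cells (cholangiocytes) and hepatocytes arise from a common embryonic precursor, the hepatoblast. Cholangiocytes line the ducts, form tight junctions, modify bile by moving water, chloride and bicarbonate, and make keratins 7 and 19. Hepatocytes make most plasma proteins, among them albumin, apolipoproteins, carriers, protease inhibitors and clotting factors. Hepatocyte transcription of albumin depends on factors such as HNF1, HNF4A, C/EBP and FOXA proteins, several of which duct cells also make.

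The proximal promoters of Alb and of 5 other plasma protein genes are shown because these genes were under 5 CPM in all Alb-low cells except for Alb in cell 18. Each is the 100 bases before the start of transcription, 5′ to 3′ on the gene's strand, from the RefSeq table of build GRCm38.p6, which is not the build of the expression file (mm9). Capitals mark GTTAAT, the letters at the core of binding sites for HNF1, searched on both strands. The windows are Alb on the plus strand at chr5:90460770-90460869, Serpina1c on the minus strand at chr12:103904951-103905050, Serpina1b on the minus strand at chr12:103738190-103738289, Ahsg on the plus strand at chr16:22891915-22892014, Itih2 on the minus strand at chr2:10130684-10130783, and a pair of Rbp4 starts on the minus strand at chr19:38125322-38125421 (a) and chr19:38124812-38124911 (b).
Alb: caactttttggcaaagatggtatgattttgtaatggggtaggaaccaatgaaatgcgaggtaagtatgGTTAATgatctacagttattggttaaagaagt
Serpina1c: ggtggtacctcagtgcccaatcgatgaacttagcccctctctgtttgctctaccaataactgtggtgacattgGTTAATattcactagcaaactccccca
Serpina1b: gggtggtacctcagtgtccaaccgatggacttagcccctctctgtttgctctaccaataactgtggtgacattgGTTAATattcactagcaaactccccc
Ahsg: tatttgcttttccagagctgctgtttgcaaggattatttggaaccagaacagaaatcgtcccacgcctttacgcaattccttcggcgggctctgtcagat
Itih2: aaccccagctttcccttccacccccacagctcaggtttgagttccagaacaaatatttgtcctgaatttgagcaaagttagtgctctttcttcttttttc
Rbp4 a: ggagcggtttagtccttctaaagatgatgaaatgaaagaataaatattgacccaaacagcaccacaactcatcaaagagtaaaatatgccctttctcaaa
Rbp4 b: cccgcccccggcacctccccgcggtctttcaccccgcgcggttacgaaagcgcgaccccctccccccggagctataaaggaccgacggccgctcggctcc
The match began 32 bases before the start in Alb, 27 in Serpina1c and 26 in Serpina1b, and Ahsg, Itih2 and both Rbp4 windows had none. Serpina1b and Serpina1c are close copies of one another, so their promoters are not independent. Of all 32851 promoters in the table, 2.51% held GTTAAT in a window of this length. In all, 12 genes were searched (7 of the 12 named below as higher that had a promoter in the table, and Alb, Serpina1b, Serpina1c, Rbp4 and Apob), and the 3 with a match in the last 100 bases were Alb, Serpina1b and Serpina1c.

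Alb itself chose the groups and is given as a description. In the 12 Alb-high cells it was lowest at 1318 CPM (cell 27), had a median of 5590 CPM and was highest at 20694 CPM (cell 21). Among the 10 Alb-low cells it was listed at 0 in 5 cells, lay between 0.888 and 4.69 CPM in 4, and was 564 CPM in cell 18. Cell 18 was thus the cell just inside the Alb-low side of the limit, and cells 27 and 31 (1695 CPM) were just inside the Alb-high side. On the Spp1 limit, the cells just inside were cell 24 (149 CPM) and cell 9 (534 CPM), and the closest cell outside had 9.27 CPM. The highest Apoa1 among the 22 cells was 95.0 CPM, in cell 31. The 6 cells of the series with Apoa1 at 100 CPM or more, called hepatocyte-like here, had a median Alb of 27029 CPM (13202 to 46892).

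Genes of duct epithelium that the rule did not use were high in both groups. Clu (clusterin, a secreted chaperone) ran from 1307 to 23037 CPM in Alb-high cells and from 4009 to 31269 CPM in Alb-low cells. Krt18, a keratin of simple epithelia, was at 100 CPM or more in 12 of 12 Alb-high and 10 of 10 Alb-low cells, and its partner Krt8 in 10 and 10. Tm4sf4, a membrane protein of the tetraspanin-like family, was at that level in 12 and 9 cells. Of the 38 duct markers measured other than Spp1, an Alb-high cell had a median of 14.5 at 100 CPM or more (7 to 17) and an Alb-low cell 14.0 (12 to 20). The groups overlapped in all of these values.

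Across the genome the comparison took the 1757 genes that reached 100 CPM in at least 4 of the 22 cells, with Alb left out. The log2 difference of a gene is its mean log2(CPM + 1) in Alb-high cells minus that in Alb-low cells. A gene was called past the fold at a log2 difference of 3 or more either way, which is 8-fold between geometric means, on a scale that understates the difference of low genes. Past the fold were 71 genes higher in Alb-high cells (4.04% of those compared) and 177 genes lower (10.1%). The median log2 difference of all 1757 genes was -0.49. By the second measure, 15 genes (0.854%) reached 100 CPM in a share of Alb-high cells at least 50 percentage points above that of Alb-low cells, and 44 genes (2.5%) did so in the other direction. No gene separated the groups without overlap (0 of 1757, 0%).

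Several plasma protein genes were among those higher in Alb-high cells. Of 82 genes measured on 4 lists (carriers, apolipoproteins, plasma serpins, and acute phase, clotting and complement proteins), 42 never reached 100 CPM in a duct-like cell and 20 entered the comparison. Of these 20, 11 were past the fold higher in Alb-high cells (4.04% of all genes were), none was past it lower (10.1% of all genes were), and the median log2 difference was 3.32 against -0.49 for all genes. Of the 20, 5 (Ahsg, Itih2, Serpina1b, Serpina1c and Rbp4) reached 100 CPM in no Alb-low cell and entered through Alb-high cells alone, so they could come out in 1 direction only and the count and median support nothing by themselves. The 11 were Trf, Ahsg, Rbp4, Cp, Itih2, Apob, Apoe, Serpina1b, Serpina1c, Hp and Cfi. Without cell 31 the count was 7. Albumin-associated genes had been seen together in earlier results on these cells, so the count is a description of the set and not independent evidence.

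**Figure D1:**
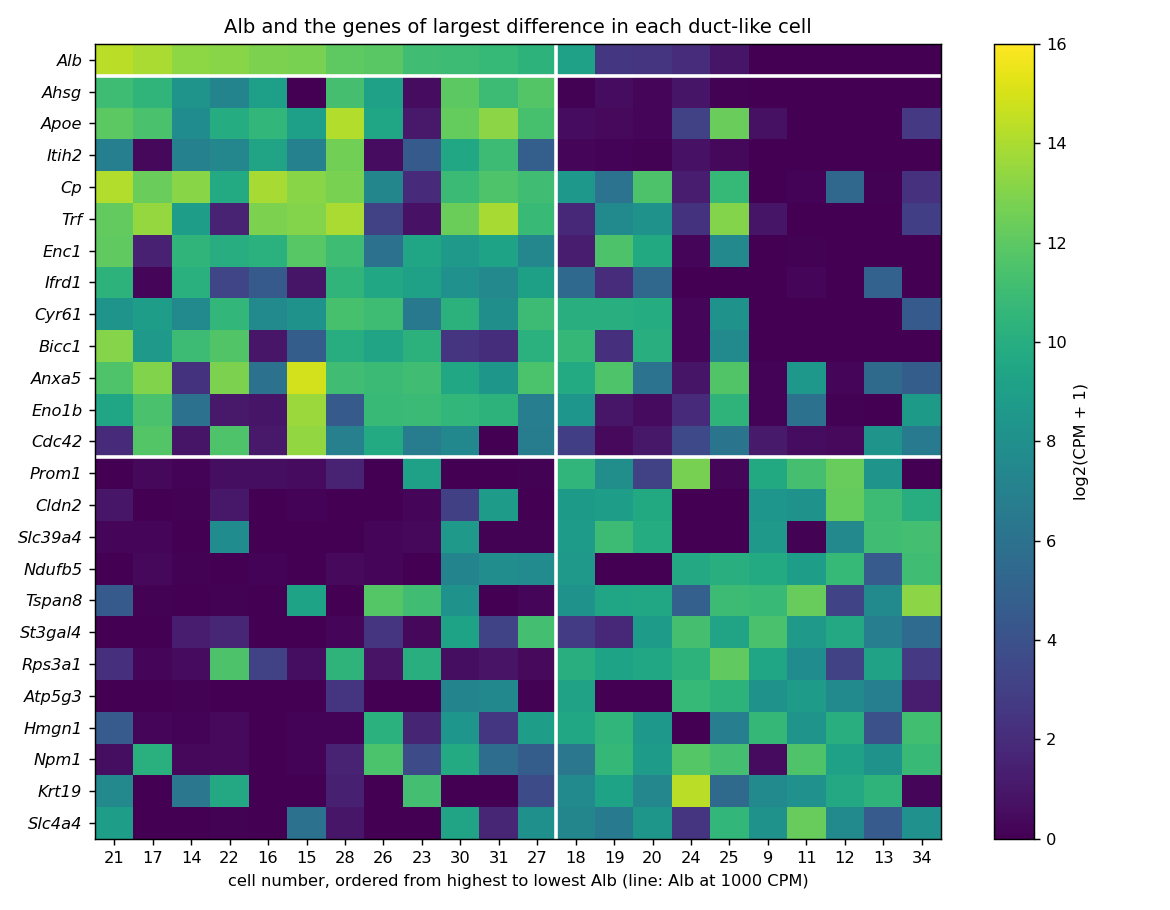
Level of Alb, of the 12 genes named as higher and of the 12 named as lower, as log2(CPM + 1) by colour, in each of the 22 duct-like cells, ordered from the highest Alb on the left to the lowest on the right. The vertical line divides 12 Alb-high from 10 Alb-low cells, and no other gene changes level without exception at that line.

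The gene with the largest log2 difference among those named was Ahsg (fetuin-A, a plasma glycoprotein that keeps calcium phosphate in solution). It had a lowest value of 0, a median of 988 and a highest value of 4082 CPM in Alb-high cells, and it did not exceed 0.860 CPM in any Alb-low cell. Ahsg reached 100 CPM in 10 of 12 and 0 of 10 cells, with a log2 difference of 8.27. The Alb-high cells without it were cells 15 and 23.

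Apoe, the apolipoprotein through which remnant particles are taken up, ran from 1.16 over a median of 2084 to 18535 CPM in Alb-high cells. In Alb-low cells the median was 0.398 CPM and the highest value 5184 CPM. That highest value belonged to cell 25, the only Alb-low cell at 100 CPM or more, whereas 11 of 12 Alb-high cells were. The log2 difference was 8.18.

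Itih2, a heavy chain of the inter-alpha-trypsin inhibitor that binds hyaluronan, ran from 0.295 over 129 to 6082 CPM in Alb-high cells. No Alb-low cell exceeded 0.688 CPM. It was at 100 CPM or more in 8 and 0 cells, with a log2 difference of 6.59. As with Ahsg, the groups overlapped only because some Alb-high cells were as low as the Alb-low cells.

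The iron and copper proteins of plasma differed in another way, since several Alb-low cells carried them. Cp (ceruloplasmin, a copper-carrying ferroxidase, also made by duct cells) ran from 2.73 over 4098 to 17989 CPM in Alb-high cells and from 0 over 22.1 to 2920 CPM in Alb-low cells. It was at 100 CPM or more in 11 and 3 cells, the latter being cells 18, 20 and 25, and its log2 difference was 6.40. Trf (transferrin, the iron carrier) ran from 0.708 over 4943 to 16102 CPM against 0 over 3.27 to 8211 CPM. Its highest Alb-low value was again that of cell 25, 9 and 3 cells reached 100 CPM, and the log2 difference was 6.08.

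Serpina1c, one of the mouse alpha-1-antitrypsin genes, reached 100 CPM in 6 of 12 Alb-high cells (highest 4271 CPM) and stayed at or under 0.317 CPM in every Alb-low cell. Its log2 difference was 5.69. Since the Serpina1 genes are near-identical copies, reads may have been divided among them, and the value of any single copy is uncertain. Rbp4, the carrier of retinol in plasma, reached 391 CPM in cell 22, was at 100 CPM or more in 4 and 0 cells and had a log2 difference of 4.19.

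Other plasma genes lay closer together. Ttr (transthyretin, the thyroid hormone carrier) was at 100 CPM or more in 9 Alb-high and 4 Alb-low cells, with medians of 344 and 10.4 CPM and a log2 difference of 2.85. Ambp (the precursor of alpha-1-microglobulin) was at that level in 8 and 5 cells with a log2 difference of 1.03. Complement C3 was at that level in 9 and 7 cells with a log2 difference of -0.43. These 3 genes did not pass the fold.

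**Figure D2:**
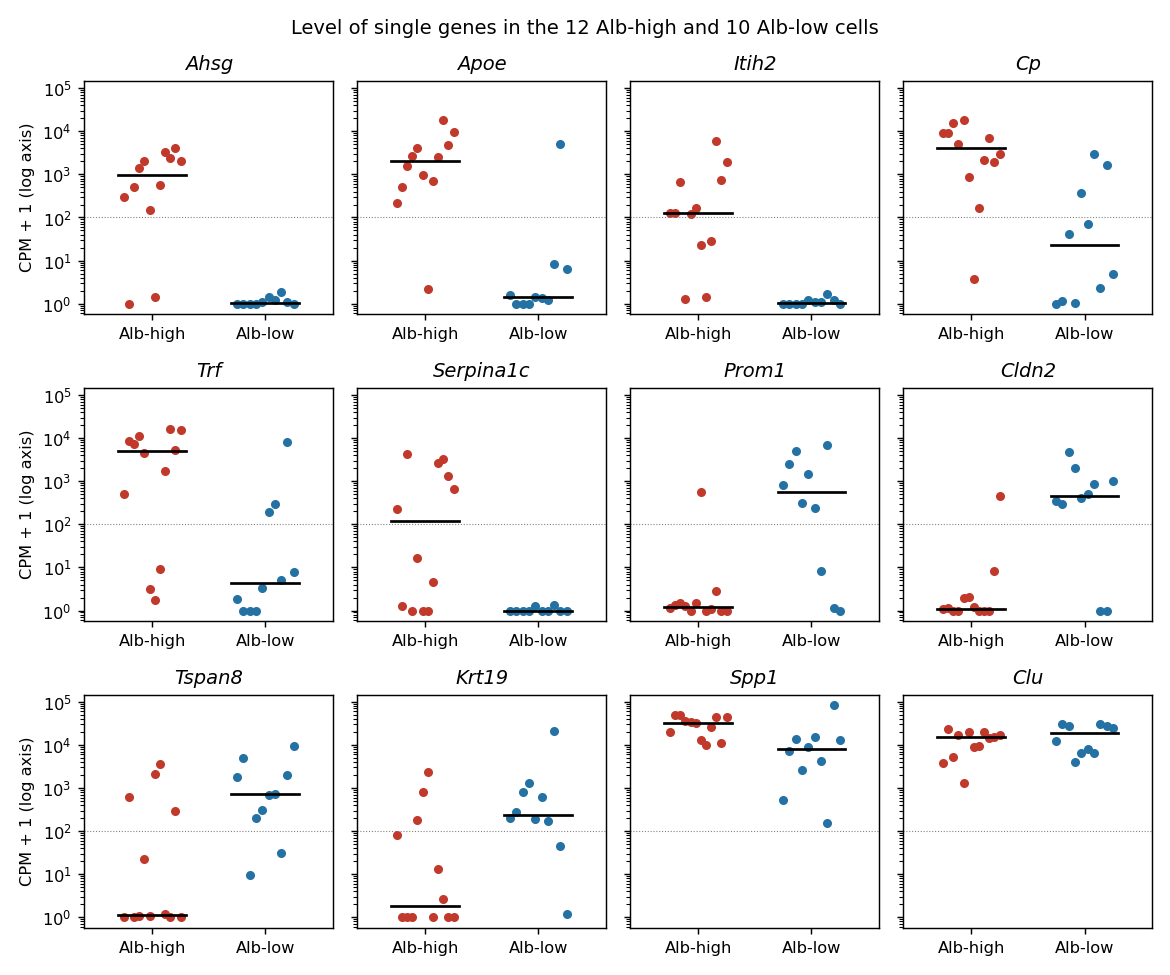
Level of 12 genes in each cell as CPM + 1 on a log axis, for the 12 Alb-high (red) and 10 Alb-low (blue) cells, where points are cells, black bars are medians and the dotted line is 100 CPM + 1. Ahsg, Itih2 and Serpina1c stay under 1 CPM in every Alb-low cell, and the levels of Clu overlap.

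Within the Alb-high cells, plasma protein genes did not follow the Alb level. The number of the 82 genes at 100 CPM or more was 18 in cell 27, 30 in cell 31, 23 in cell 30 and 23 in cell 28, whose Alb was between 1318 and 4206 CPM. In the other 8 cells, which included the 6 with the most Alb, it was between 4 and 14. The first 4 cells also had more genes of any kind at 100 CPM or more, 939 to 1110, against 581 to 816 in 7 of the other 8 and 1116 in cell 23. The part of this in the plasma count was not tested. The Alb-low cells had 1 to 12, and the hepatocyte-like cells 53 to 71.

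The same 4 cells held genes that the remaining Alb-high cells lacked. Serpina1b was 556, 787, 966 and 2713 CPM in cells 27, 31, 30 and 28 and at most 1.25 CPM in the other 8. Hp (haptoglobin, which binds free haemoglobin) was 1867, 10156, 289 and 6281 CPM in these cells in the same order, and among the others only cell 17, at 1942 CPM, was above 5.96 CPM. Vtn (vitronectin, an adhesive plasma protein) was 2.00, 953, 587 and 3414 CPM and at most 1.53 CPM in the others. These cells were picked out after their values were seen, and their numbers lie between 27 and 31. Whether cell number marks an animal, plate or day is not in the labels, so such a source and a kind of cell cannot be told apart.

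Spearman's rho of a gene with Alb across the 12 Alb-high cells, as a description, was 0.56 for Cp, 0.10 for Ttr, -0.01 for Trf, -0.15 for Apoe, -0.23 for Itih2 and -0.33 for Ahsg. Each cell is a library with its own depth and scaling factor, which all these genes share. Across all 22 cells and 985 genes detected at 1 CPM in at least 11 of them, the genes whose order was most like that of Alb were Cp (0.79), Enc1 (0.74), Bicc1 (0.72), Fosb (0.72) and Slu7 (0.67). Most opposed were St3gal4 (-0.80), Tgm2 (-0.76), Rpl38 (-0.76), Atpif1 (-0.74) and Nucks1 (-0.74).

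Cell 23 went against its group in most of these genes, and cell 25 in Apoe, Cp and Trf. Cell 23, with 2190 CPM of Alb, had 0.450 CPM of Ahsg, 1.16 CPM of Apoe, 2.73 CPM of Cp and 0.708 CPM of Trf. It was also the only Alb-high cell with Prom1 at 100 CPM or more (566 CPM). Cell 25, with 0.888 CPM of Alb, had 5184 CPM of Apoe, 1688 CPM of Cp and 8211 CPM of Trf, but 0.0807 CPM of Ahsg and 0.242 CPM of Itih2.

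Plasma genes were also set against Alb in Alb-high and in hepatocyte-like cells. A gene's CPM per 100 CPM of Alb was compared between groups for 1 gene at a time, because CPM does not correct for transcript length. The hepatocyte-like libraries stood apart: Rn45s, the ribosomal RNA precursor, held 0.383 to 1.22% of their summed CPM against 10.4 to 21.7% in Alb-high cells. Lars2 had medians of 0.982 and 14639 CPM, and Rorb of 38444 and 44.5 CPM, in hepatocyte-like and Alb-high cells. The part of this in the comparison below was not tested. Cp had a median of 94.1 in Alb-high cells, and 11 of the 12 were above the whole hepatocyte-like range of 0.344 to 2.03. Ahsg (9.31 against 12.2) and Apoe (18.8 against 20.9) had closer medians with a far wider range in Alb-high cells. Apob (the structural protein of very-low-density lipoprotein) had medians of 8.03 and 0.0256.

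Several abundant hepatocyte transcripts were at or near 0 in Alb-high cells. Apoc3, an inhibitor of lipoprotein lipase, was listed at 0 in 12 of 12, against 4.30 to 40.1 per 100 CPM of Alb in hepatocyte-like cells. Apoa2, the other main protein of high-density lipoprotein, was at most 0.122 against 12.7 to 68.6. Fabp1, the liver fatty acid binding protein, was at most 0.00574 against 12.5 to 46.7, and Serpina1e at most 0.0756 against 9.22 to 41.3. Apoa1, at most 5.60 against 34.9 to 64.3, was kept low by the rule. Serpina3k was at most 5.55 against 22.0 to 51.0. The ranges of these 6 genes did not overlap between the groups, and those of 15 of the 22 liver genes looked at did. Spp1, which the rule kept high, did not overlap in the other direction. Of 1181 genes at 100 CPM or more in at least 4 of these 18 cells, 8.38% were lower and 3.98% higher in Alb-high cells without overlap.

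**Figure D3:**
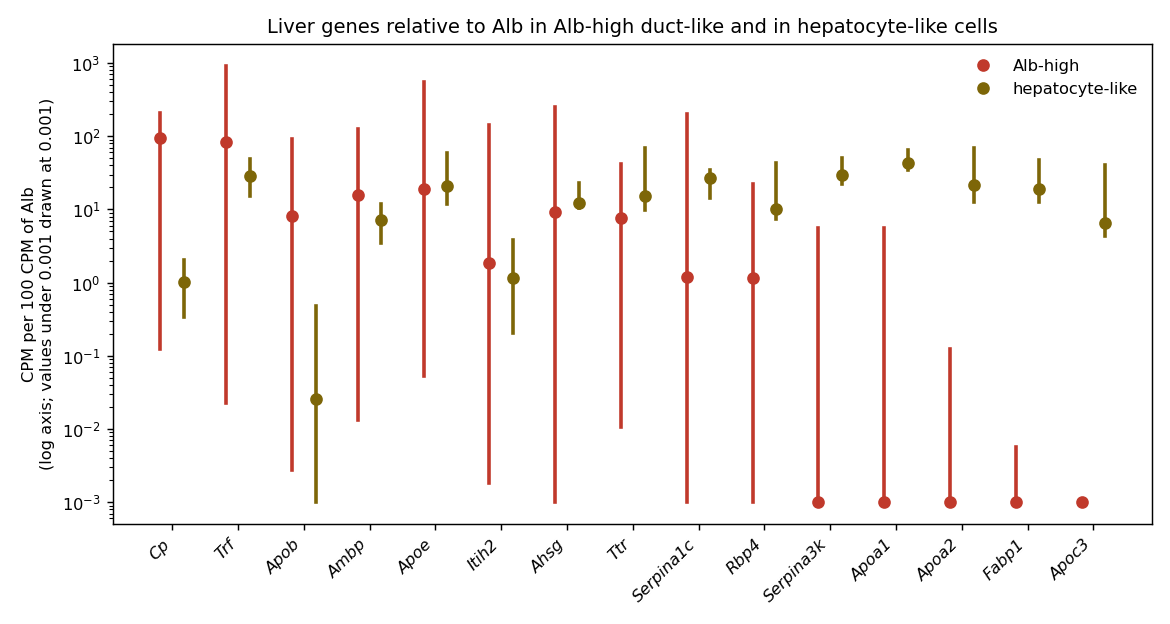
CPM of 15 liver genes per 100 CPM of Alb on a log axis, in 12 Alb-high duct-like cells (red) and 6 hepatocyte-like cells (ochre), where dots are medians, lines run from the lowest to the highest cell and values under 0.001 are drawn at 0.001. Cp, Trf, Apob, Ambp and Itih2 have the higher median in Alb-high cells, while Serpina3k, Apoa1, Apoa2, Fabp1 and Apoc3 do not overlap and are lower there.

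Hepatocyte enzymes did not accompany Alb. Of 53 measured enzymes of the urea cycle, amino acid, lipid, glucose and drug metabolism, a median of 2 reached 100 CPM in an Alb-high cell (0 to 6) and a median of 2 in an Alb-low cell (0 to 7), against 34.5 (28 to 41) in hepatocyte-like cells. Of the 6 that entered the comparison, none was past the fold higher (4.04% of all genes were). Another 2, Ugt2b34 and Phyh, were past it lower (10.1% of all genes were). Of the 6, 1 reached 100 CPM in no Alb-high cell and entered through Alb-low cells alone. The median log2 difference of the 6 was -1.94 against -0.49 for all genes. It was -0.32 against -0.45 without cells 9, 11, 12 and 13, and -0.64 against 0.39 within cells 24 to 34. Cyp2e1, the ethanol-oxidising cytochrome of hepatocytes around the central vein, was at most 12.5 CPM in Alb-high cells, against a median of 865 CPM in hepatocyte-like cells. Major urinary protein genes, of which 20 were measured, did not enter the comparison.

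Liver transcription factors were mostly alike in level. Of 13 compared, 1 was past the fold higher (4.04% of all genes were) and none was past it lower (10.1% were). The median log2 difference was -0.16 against -0.49 for all genes. The gene past the fold was Prox1, a homeodomain factor of the embryonic and adult liver. It was at 2935 CPM in cell 14, 491 in cell 15, 424 in cell 26 and 124 in cell 31, and at most 10.3 CPM in Alb-low cells (log2 difference 3.62). Prox1 entered through Alb-high cells alone, so it could come out in 1 direction only. Hnf4a, the nuclear receptor that maintains hepatocyte genes, was at 100 CPM or more in 2 and 2 cells. Onecut2 was at that level in 9 and 8 cells, Sox9 in 5 and 3, and Nfib in 10 and 5 (log2 difference 2.04).

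None of 4 Notch pathway genes (the pathway that directs duct formation), 9 Wnt pathway genes or 4 proliferation genes compared was past the fold either way. Of all genes, 4.04% were past it higher and 10.1% lower, and at these shares a list this short can hold none. Jag1, a Notch ligand, was at 100 CPM or more in 1 Alb-high and 5 Alb-low cells (log2 difference -2.54), and Pcna, the replication clamp, in 3 and 3.

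The median of secretory machinery genes was not raised with that of the plasma genes. Of 31 genes of the endoplasmic reticulum and secretory pathway, none was past the fold higher (4.04% of all genes were). Ssr2 and Sar1b were past it lower (10.1% of all genes were), and the median log2 difference was -1.13 against -0.49 for all genes. Of the 31, 1 reached 100 CPM in no Alb-high cell and entered through Alb-low cells alone. Hspa5, the main chaperone of that compartment, was at 100 CPM or more in 11 and 7 cells, with medians of 803 and 835 CPM.

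The remaining genes named as higher in Alb-high cells encode proteins of the cell interior or matrix. Enc1, an actin-associated Kelch protein, had medians of 845 and 0.119 CPM and was at 100 CPM or more in 10 and 3 cells (log2 difference 5.95). Ifrd1, a transcriptional co-regulator, had medians of 410 and 0.0981 CPM and did not exceed 43.9 CPM in any Alb-low cell (5.14). Bicc1, an RNA-binding protein whose loss gives cystic kidneys and ducts, had medians of 819 and 0.0860 CPM and was at that level in 8 and 3 cells (4.78).

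Cyr61 (a matricellular protein induced by YAP) ranged from 87.3 to 2617 CPM in Alb-high and from 0 to 1103 CPM in Alb-low cells. It reached 100 CPM in 11 and 4 cells with a log2 difference of 4.81. That difference rested on which cells were compared: it was 1.94 without cells 9, 11, 12 and 13, and -1.79 within cells 14 to 23. Of 6 Hippo pathway genes compared, Cyr61 was the 1 past the fold, where 4.04% of all genes were past it higher and 10.1% lower. Ctgf, another YAP target, had a log2 difference of 0.21.

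Anxa5, a calcium-dependent phospholipid binder, had medians of 2182 and 56.9 CPM (log2 difference 4.35), and Cdc42, a small GTPase of cell polarity, 119 and 4.04 CPM (3.43). Eno1b had medians of 992 and 1.90 CPM (4.32). It is a near-copy of the enolase gene Eno1, so its reads may belong to that gene. Several of these differences were under the fold in narrower sets of cells. Within cells 14 to 23 the log2 difference was 1.85 for Enc1, 1.23 for Ifrd1, 1.00 for Bicc1, 1.09 for Anxa5 and 2.47 for Cp. Within cells 24 to 34 it was 0.77 for Cdc42 and 1.59 for Eno1b.

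Among immediate early genes, which tissue dissociation also induces, 2 of 36 compared were past the fold higher (Fosb and Cyr61), a share near the 4.04% of all genes, and the median log2 difference was 0.44. Fosb, an AP-1 subunit, was at 782 to 6383 CPM in all 12 Alb-high cells and at 0 to 1709 CPM in Alb-low cells. Fos was at 100 CPM or more in 12 and 9 cells and Jun in 12 and 10. Of 10 inflammatory genes, Icam1 (an adhesion receptor for leukocytes, log2 difference 3.57) and Irf1 (an interferon-induced factor, 3.10) were past the fold higher. Cxcl5, a neutrophil chemokine, was past it lower. Of all genes, 4.04% were past the fold higher and 10.1% lower. Icam1 and Irf1 reached 100 CPM in no Alb-low cell and entered through Alb-high cells alone, so they could come out higher only.

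Class I antigen presentation genes had a median log2 difference of 1.85 over 14 compared, against -0.49 for all genes. H2-L and H2-Q10 were past the fold higher (4.04% of all genes were). Of these 14, 4 reached 100 CPM in no Alb-low cell and entered through Alb-high cells alone. Their sequences are highly alike between copies and vary by strain, so single-copy values are uncertain. The median was -0.55 within cells 14 to 23, against -0.97 for all genes there. Within cells 24 to 34 it was 2.88, against 0.39 for all genes there. Its sign thus rested on which cells were taken, while it lay above the median of all genes in both sets.

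Among the named genes lower in Alb-high cells, Prom1 (prominin 1, a protein of apical membrane protrusions, used as a progenitor marker under the name CD133) was at most 1.83 CPM in 11 of the 12 Alb-high cells and 566 CPM in cell 23. In Alb-low cells it ran from 0 over a median of 573 to 6819 CPM. It was at 100 CPM or more in 1 and 7 cells, and its log2 difference was -6.52.

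Cldn2, a claudin that makes tight junctions permeable to cations and water, was 445 CPM in cell 31 and at most 7.32 CPM in the other 11 Alb-high cells. In Alb-low cells 8 of 10 were at 295 CPM or more, and cells 24 and 25 were listed at 0. The log2 difference was -6.51 in all cells, -8.77 within cells 14 to 23 and -0.96 within cells 24 to 34. Of 17 junction genes compared, Cldn2 and Itgb4 (the integrin of hemidesmosomes, log2 difference -3.68) were past the fold lower, a share near the 10.1% of all genes. None was past it higher (4.04% of all genes were). The median of the 17 was -0.44 against -0.49 for all genes, and Cdh1 (E-cadherin) was at 100 CPM or more in 9 and 7 cells.

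Tspan8, a tetraspanin of ductal and gut epithelium, had medians of 0.118 and 714 CPM. It reached 100 CPM in 4 Alb-high cells (cells 15, 23, 26 and 30) and in 8 Alb-low cells. Its log2 difference was -5.26 in all cells and stayed between -5.66 and -5.49 in the 4 narrower sets of cells that were compared.

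Krt19, the keratin whose promoter drove Cre in these mice, was listed at 0 or under 100 CPM in 9 of 12 Alb-high cells. There its median was 0.800 CPM and its maximum 2381 CPM (cell 23), against 233 CPM and 20676 CPM (cell 24) in the Alb-low group. It was at 100 CPM or more in 3 and 8 cells, and the log2 difference was -4.69. GFP sorting required past Krt19-driven Cre activity, not current Krt19 RNA. Krt7, its partner in duct cells, was at 100 CPM or more in 4 and 5 cells, with medians of 0.345 and 231 CPM (log2 difference -3.37).

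Among the 29 duct markers compared, 6 were past the fold lower in Alb-high cells (Tspan8, Krt19, Krt7, Cd24a, Aqp1 and Fxyd3) and 2 higher (Bicc1 and Cp), where 10.1% and 4.04% of all genes were, with a median log2 difference of -0.47 against -0.49 for all genes. Aqp1 and Fxyd3 reached 100 CPM in no Alb-high cell and entered through Alb-low cells alone, so they could come out lower only. Spp1, which the rule used, is among the 29 markers, with medians of 32420 and 7949 CPM. Aqp1, the main water channel of the duct, was at most 0.173 CPM in Alb-high cells and reached 116 to 4921 CPM in cells 9, 11, 12 and 13 alone. Cd24a, a surface glycoprotein, had medians of 66.0 and 2394 CPM. Of the 8 reported progenitor genes compared, Prom1 and Cd24a were past the fold lower (10.1% of all genes were) and none was past it higher (4.04% were). Cd44, a hyaluronan receptor, had medians of 1.92 and 293 CPM (log2 difference -2.84).

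Transport and glycosylation genes were also among the named lower genes. Slc39a4, a zinc importer, had medians of 0.111 and 438 CPM and was at 100 CPM or more in 2 and 7 cells (log2 difference -5.37). Slc4a4, a sodium bicarbonate cotransporter of the basolateral membrane, had medians of 0.515 and 233 CPM and was at that level in 3 and 7 cells (-4.69). St3gal4, a sialyltransferase, had medians of 0.763 and 413 CPM and was at that level in 2 and 7 cells (-5.13).

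Of 4 mucosal defence genes compared, Dmbt1 and Gpx2 were past the fold lower (10.1% of all genes were). Both reached 100 CPM in no Alb-high cell and entered through Alb-low cells alone, so they could come out lower only. Lcn2 reached 100 CPM in 8 and 4 cells and Pigr in 6 and 4. Dmbt1, a secreted scavenger protein of duct and gut mucus, was 30698, 50843, 73383, 12939 and 47943 CPM in cells 9, 11, 12, 13 and 24 and at most 5.72 CPM in every other cell. Its log2 difference of -7.33 became -2.42 without cells 9, 11, 12 and 13. Gpx2, an epithelial glutathione peroxidase, was at 100 CPM or more in 0 and 5 cells (cells 11, 12, 13, 24 and 25). Cell 24 stood apart in having the highest Prom1, Krt19 and Gpx2 (19190 CPM) of the 22 cells and the lowest Spp1. It also had the highest summed CPM of the 22 cells (3128330), and these ranks do not allow for that. Cell 12, for example, had 5047 CPM of Prom1 against 6819 CPM in cell 24, but in a sum of 1385300 CPM.

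**Figure D4:**
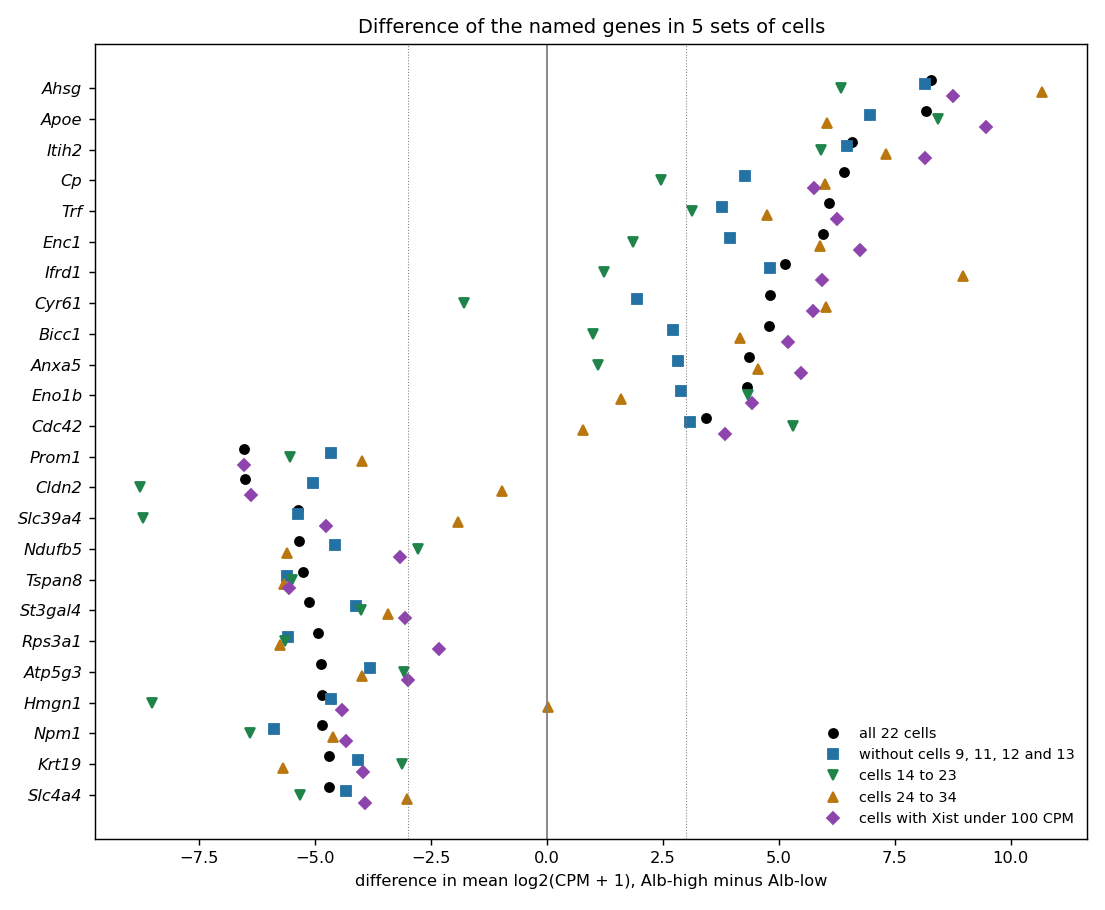
Log2 difference (Alb-high minus Alb-low, in mean log2(CPM + 1)) of the 24 named genes in all 22 cells and in 4 narrower sets of cells, with dotted lines at the fold limit of 3 either way. Ahsg, Apoe and Itih2 stay above 3 and Prom1, Tspan8 and Krt19 under -3 in all 5 sets, while Cyr61 turns to -1.79 within cells 14 to 23 and Hmgn1 to 0.018 within cells 24 to 34.

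The last set of genes lower in Alb-high cells encodes housekeeping machinery. Of 69 ribosomal protein genes compared, 18 were past the fold lower (10.1% of all genes were) and none was past it higher (4.04% were). Of the 69, 68 had a log2 difference under 0, as did 1062 of all 1757 genes compared. The median was -1.97 against -0.49 for all genes. Without cell 24 the count was 10, and within cells 14 to 23 the median was -1.17 against -0.97 for all genes there. An Alb-high cell had 15 to 41 of them at 100 CPM or more (median 30.5) and an Alb-low cell 30 to 69 (median 46.5). Of the 69 compared, 1 reached 100 CPM in no Alb-high cell and entered through Alb-low cells alone, so it could come out lower only. Rplp0, a protein of the ribosome's stalk, had medians of 518 and 1591 CPM. Rps3a1, of the small subunit, was at 100 CPM or more in 3 and 8 cells, with processed copies in the genome that make its value uncertain.

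Respiratory chain genes were also lower. Of 60 compared, 18 were past the fold lower (10.1% of all genes were) and none was past it higher (4.04% were). The median was -2.17 against -0.49 for all genes. Without cell 11 the count past the fold was 10. Of the 60, 4 reached 100 CPM in no Alb-high cell and entered through Alb-low cells alone, so they could come out lower only. The number at 100 CPM or more was 6 to 29 in Alb-high cells (median 12.5) and 12 to 51 in Alb-low cells (median 30.5). Ndufb5, a subunit of complex I, had medians of 0.132 and 649 CPM (log2 difference -5.34), and Atp5g3, of the ATP synthase ring, was at 100 CPM or more in 2 and 7 cells (-4.86). Without cells 9, 11, 12 and 13 the median was -1.16, and within cells 14 to 23 it was -0.41 against -0.97 for all genes there.

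Hmgn1, a nucleosome-binding protein, and Npm1, the nucleolar chaperone nucleophosmin, were each at 100 CPM or more in 3 Alb-high and 8 Alb-low cells. The log2 difference of Hmgn1 was -4.85 and that of Npm1 -4.84. Of 9 genes on a housekeeping list, 6 had a log2 difference under 0, as did 1062 of all 1757 genes compared. Of the 9, 1 (Rplp0) was past the fold lower, a share near the 10.1% of all genes. The median of the 9 was -0.16 against -0.49 for all genes. In that list Actb had medians of 4217 and 3547 CPM and Gapdh 747 and 541 CPM.

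**Figure D5:**
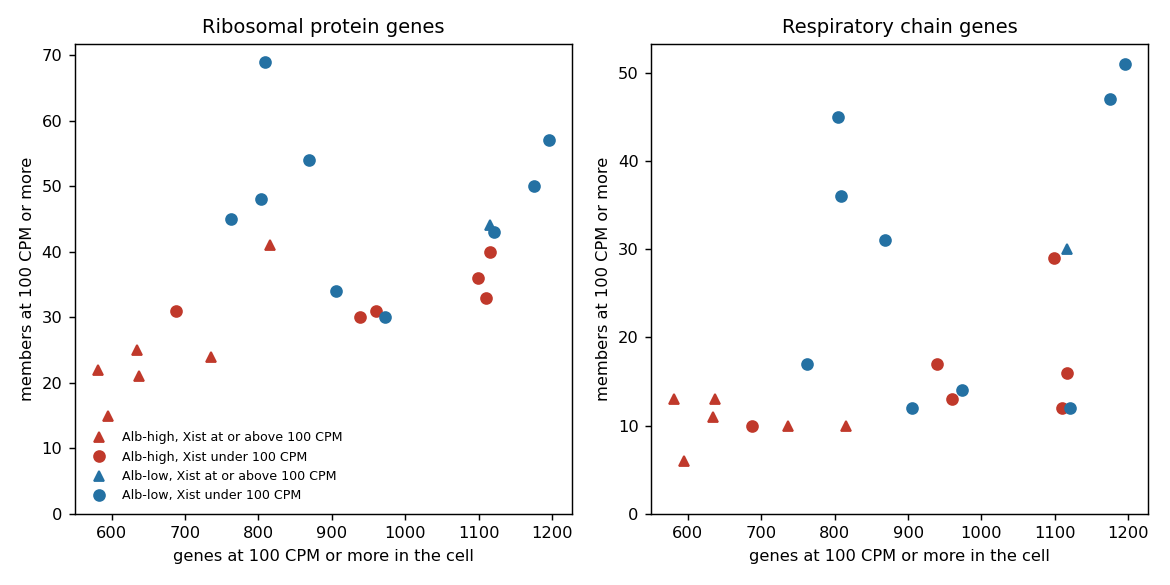
Number of ribosomal protein genes (left) and respiratory chain genes (right) at 100 CPM or more in a cell, against the number of all genes at that level in it, for Alb-high (red) and Alb-low (blue) cells, with triangles for cells with Xist at 100 CPM or more. The Alb-high cells with the fewest genes, 581 to 816, include all 6 with Xist.

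Library measures moved with the groups. The number of genes at 100 CPM or more was 581 over a median of 776 to 1116 in Alb-high cells and 762 over 939 to 1196 in Alb-low cells. One CPM stood for a median of 8.51 reads in Alb-high cells (5.78 to 15.5) and 12.8 in Alb-low cells (4.46 to 19.8), estimated from the commonest low value of each cell. Rn45s held a median of 14.5% and 19.6% of the summed CPM. That sum had a median of 1182110 in Alb-high cells (626358 to 1625440) and 1243950 in Alb-low cells (774081 to 3128330). The part of these measures in the lower values of Alb-high cells was not tested.

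Xist, the transcript of the inactive X chromosome, was at 100 CPM or more in 6 of 12 Alb-high cells and 1 of 10 Alb-low cells. Ddx3y, Eif2s3y or Uty, genes of the Y chromosome, was at 10 CPM or more in 3 and 5 cells, and no cell had both. In cells with Xist under 100 CPM (6 Alb-high and 9 Alb-low), the median log2 difference of the plasma lists was 5.66, of ribosomal protein genes -1.42 and of respiratory chain genes -1.55, against 0.12 for all genes. There Ahsg had a log2 difference of 8.75, Apoe 9.47, Prom1 -6.53 and Tspan8 -5.55. The plasma lists' median was 2.10 within cells 14 to 23 (7 against 3 cells) and 5.37 within cells 24 to 34 (5 against 3).

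Markers of other cell types were few at 100 CPM or more in a cell, and some moved with the groups. No granulocyte marker of 9 measured reached 100 CPM in any of the 22 cells, and their summed level was at most 196 CPM in Alb-high and 114 CPM in Alb-low cells. At most 2 of 11 macrophage markers reached 100 CPM in a cell of either group, with summed levels of up to 3854 and 4688 CPM. For lymphoid markers, of which 4 were measured, the summed level was at most 15.1 and 213 CPM. Of 17 fibroblast and stellate markers at most 3 reached 100 CPM in a cell of either group. Their summed level was 0.263 over a median of 14.1 to 4501 CPM in Alb-high cells and 2.35 over 596 to 5271 CPM in Alb-low cells, and the 3 compared (Sparc, Fbln2 and Rgs5) had log2 differences under 0. At most 1 of 8 endothelial and 3 of 11 mesothelial markers did, and these lists hold Aqp1 and Krt19, which duct cells also make. The endothelial sum had medians of 1.30 and 58.5 CPM (highest 144 and 4921) and the mesothelial sum 67.9 and 553 CPM (highest 3788 and 20679). The part of these markers in the differences was not tested. Apoc3 and Apoa2, abundant transcripts of the hepatocyte-like cells, were at 0 and at most 4.72 CPM in Alb-high cells, against an Apoa2 median of 7583 CPM in hepatocyte-like cells.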

How the data were processed

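Single GFP+ cells had been sorted, picked one by one and sequenced, per the labels' protocols; each library is 1 cell. The submitters' processing notes name Bowtie 0.12.9, eXpress 1.5.1, edgeR and genome build mm9. The authors deposited log2 values for 13568 transcripts under 10061 symbols in 39 cells. The scale was inferred from the values: CPM was taken as 2 to the deposited log2 value minus 0.167, the linear form of the file's lowest value (-2.58), and transcripts of a symbol were summed. Zeros are values at that minimum, and housekeeping genes are among them. No cell was removed and no doublet caller was run.

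The cells, gene lists and rules were chosen with earlier results of these data known. Genes were compared if at 100 CPM or more in at least 4 of 22 cells, with a pseudocount of 1. Named genes are the 12 largest differences each way among genes at 100 CPM or more in at least 8 of the 12 Alb-high cells (higher) or 7 of the 10 Alb-low cells (lower); others were chosen as list members or after their values were seen. The code was run on values shuffled gene by gene between the 22 cells, with a large difference added to some genes. That run checks only that the code recovers such differences, because shuffling removes effects of depth, scale or animal. Python 3.11.15, numpy 2.4.6, pandas 2.3.3 and scipy 1.17.1 were used. Cell number, Xist and single-library alternatives were tried, as the closing section gives.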

Additional observations from a re-analysis of the deposited data

How the results depend on the processing

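With 22 cells of 1 labelled group, counts of genes past a limit depend on single cells. Leaving out 1 cell at a time gave 57 to 78 genes past the fold higher and 139 to 191 lower, 12 to 20 and 34 to 59 by share of cells, 0 to 1 without overlap, 7 to 12 plasma genes higher, 5 to 7 duct markers, 10 to 21 ribosomal and 10 to 21 respiratory genes lower. The fewest plasma genes came without cell 31, ribosomal without cell 24, respiratory without cell 11. All 24 named genes kept the direction of their difference in these 22 fits. They had been chosen for the largest differences in the same cells, so leaving out 1 cell could hardly reverse them and this is no support. A filter of at least 8 cells gave 19 higher and 64 lower, and 8 and 20 by share. Alb split at 10000 CPM (2 against 20 cells) gave 182 and 375, 61 and 94 by share, 9 without overlap, 31 ribosomal genes, and -0.12 for Itih2. Spp1 at 1000 CPM or more gave 1 gene without overlap, 8 ribosomal and 11 respiratory. Rescaling every cell to the same sum gave 11 ribosomal genes and moved the median of all genes from -0.49 to -0.35. A fold limit of 2 gave 156 and 371, one of 4 gave 19 and 62, and group medians gave 108 and 321. A pseudocount of 0.1 gave 128 and 295 and 29 respiratory genes; one of 10 gave 15 and 35, 6 plasma genes, 3 duct markers, 3 ribosomal and 2 respiratory. The cause of these changes was not tested.

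The following sets were chosen after seeing the data. Cells 14 to 23 gave 415 lower, 34 and 281 by share, 43 without overlap, 10 respiratory genes and -1.79 for Cyr61. Cells 24 to 34 gave 333 and 268, 124 and 98 by share, 111 without overlap, 10 duct markers and 0.018 for Hmgn1. Cells with Xist under 100 CPM gave 174 higher, 88 higher by share, 2 without overlap and 11 ribosomal genes. Without cells 9, 11, 12 and 13, 67 were lower by share and 9 respiratory genes were past the fold. Outside leaving cells out, 76 of the values for the main counts were within 1.5 times and 46 were not. No paired analysis was possible because the labels give 1 group and name no animal. Depth limits low genes: a value under about 1 CPM rests on few reads.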

Other observations

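Some interferon-inducible genes differed between Alb-high cells of different cell numbers. Tgtp1, a GTPase of defence against intracellular parasites, was between 173 and 9942 CPM in the 7 Alb-high cells numbered 14 to 23 and was listed at 0 in the 5 numbered 26 to 31. Among the Alb-low cells it was highest at 56.1 CPM in cell 20. Tgtp2, its near-identical copy, reached 17780 CPM in cell 22, and reads may have been divided between the copies. Iigp1, another GTPase of the family, did not divide the cells by number and was at 100 CPM or more in cells 16, 17, 27 and 30 (325, 5986, 344 and 132 CPM). Ltb (lymphotoxin beta, a cytokine of the tumour necrosis factor family) was 102 CPM in cell 26, 650 in cell 27, 254 in cell 28 and 450.0 in cell 31, 8.13 in cell 30, and above 0.1 CPM among cells 14 to 23 only in cell 17 (182 CPM). These genes were chosen after their values were seen.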
